A study of Mus musculus with 4 samples.

Results

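The genes described here are 10 Kruppel-like factors, Klf2, Klf3, Klf4, Klf5, Klf6, Klf9, Klf10, Klf11, Klf13 and Klf15, measured after knockdown of Safb in a mouse hepatocyte line. They were chosen by gene symbol, and each matched 1 of the 52192 gene identifiers in the deposited table. Klf2 and Klf6 were singled out because they were higher with the knockdown in these same libraries. The values of all 10 in that comparison are therefore given as a description, without p-values, and their calls are only counted beside those of all genes.

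RNA came from AML12 cells, an established mouse hepatocyte line. The tested cells carried a hairpin against Safb (shSafb) and the control cells a control hairpin (shCtrl), both delivered by lentivirus, with 2 libraries each. The Safb product, scaffold attachment factor B, binds DNA and RNA at the nuclear matrix. All 4 libraries came from cells grown with 10% serum and 0.1 uM dexamethasone, a glucocorticoid, and collected at day 5. The labels name no separate hairpin, clone or culture for the replicates. Each p-value below thus reflects the scatter among these 4 libraries alone, and that scatter may be technical.

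Kruppel-like factors (KLFs) are transcription factors that bind GC-rich and CACCC elements through zinc fingers at their carboxyl end. The outer parts of the proteins differ and sort the family into activators that recruit acetyltransferases (Klf2, Klf4, Klf5, Klf6 and Klf7), repressors that recruit CtBP (Klf3, Klf8 and Klf12) and repressors that recruit Sin3 (Klf9, Klf10, Klf11, Klf13, Klf14 and Klf16). In liver, KLFs are known for links to glucose and amino acid metabolism, to the response to injury and to the daily clock.

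The promoters of Klf2 and Klf6 are shown because these genes were the starting point of the comparison. Sequences are from RefSeq on GRCm38.p6, plus strand, and stop at the base before the first annotated transcript start. Capitals mark GGGCGG, the core of the GC box bound by SP and KLF proteins, CCAAT, the NF-Y element, and the MEF2 box, the element of MEF2 factors. All were searched on both strands, and no marked matches overlap. The Klf2 stretch is chr8:72318812-72319032 (221 bases) and the Klf6 stretch is chr13:5861239-5861481 (243 bases).
Klf2: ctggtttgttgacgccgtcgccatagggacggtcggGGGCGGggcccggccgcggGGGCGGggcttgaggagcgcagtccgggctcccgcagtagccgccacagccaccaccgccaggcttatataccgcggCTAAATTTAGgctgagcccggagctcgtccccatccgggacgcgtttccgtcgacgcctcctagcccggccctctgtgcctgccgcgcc
Klf6: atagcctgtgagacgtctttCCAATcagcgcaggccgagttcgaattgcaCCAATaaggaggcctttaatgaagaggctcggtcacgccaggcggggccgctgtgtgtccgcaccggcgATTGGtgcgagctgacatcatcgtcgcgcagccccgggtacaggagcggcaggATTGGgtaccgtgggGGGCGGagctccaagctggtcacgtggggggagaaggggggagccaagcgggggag

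The Klf2 stretch holds 2 GGGCGG matches and 1 MEF2 box. The Klf6 stretch holds 1 GGGCGG match and 4 CCAAT matches. RefSeq promoter windows matched 8 of the 10 genes. In the 250 bases before the start, GGGCGG occurred in 7 of these 8, against 32.7% of 32851 mouse promoters of the same length. CCAAT occurred in 5 of 8 against 33.8% of all promoters, and CACCC in 5 of 8 against 52.0%. Klf2 was the 1 gene of the 8 with a MEF2 box, which 0.508% of all promoters hold. TATAAA, TGACGTCA and the CArG box were in 0 of 8, against 12.4%, 1.55% and 1.47% of all promoters. GTAAACA, a forkhead element, was in 1 of 8, Klf9, against 3.17%. The 8 windows were GC-rich, from 59.6% for Klf9 to 78.4% for Klf3, where the median of all promoters was 52.4%. A match of letters is a description and not a binding site.

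Safb itself was at 15.8 and 15.02 TPM in the shSafb libraries, against 23.8 and 23.3 TPM in the shCtrl libraries (log2 difference -0.56 ± 0.07, SE; limma adjusted p = 0.00411). The TPM unit is a transcript level per gene length within a fixed library total, so genes can be compared within a library, but the sequencing depth is unknown. In bulk RNA, fewer cells of a type and less RNA per cell cannot be told apart. Across tested genes, Spearman's rho was 0.989 to 0.990 within groups and 0.951 to 0.952 between groups. The share of TPM from mitochondrial DNA was 0.318% and 0.343% in shSafb, against 0.845% and 0.703% in shCtrl; its part in the KLF values was not tested. Hepatocyte markers were present, with Ttr, the transthyretin gene, at 2177 and 2189 TPM in shSafb and 2312 and 2248 TPM in shCtrl, and Hnf4a at 157 to 162 TPM in shSafb and 164 to 169 TPM in shCtrl. Alb, the albumin gene, was at 122 and 127 TPM in shSafb, against 378 and 345 TPM in shCtrl, and Trf, the transferrin gene, at 6814 and 6778 TPM, against 2453 and 2418 TPM. Of 6 bile duct markers, 4 were expressed, and the summed level was 1513 and 1578 TPM in shSafb, against 1675 and 1640 TPM in shCtrl. Their directions differed. Krt19 was at 676 and 679 TPM in shSafb, against 320 TPM in both shCtrl libraries, and Krt7 at 160 to 180 TPM over the 4 libraries. Spp1, the osteopontin gene, was at 610 and 671 TPM in shSafb, against 1108 and 1101 TPM in shCtrl (limma adjusted p = 0.00149), and Sox9 at 47.3 and 50.6 TPM, against 71.7 and 59.2 TPM (limma adjusted p = 0.0271). The Sox9 call was lost without shCtrl replicate 1 (limma adjusted p = 0.0619), shSafb replicate 1 (0.108) or shSafb replicate 2 (0.0655) and with no filter (0.0563), over a range of 0.0206 to 0.108. Epcam and Prom1 were at or near 0. Sox9 was named after its values were seen.

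Among the activator group, Klf2 showed the largest ratio and log2 difference of the 10 genes, though not the largest difference in TPM. Klf2, which is known for keeping endothelial cells and T cells quiescent, had 9.196 and 9.205 TPM in the shSafb libraries, against 0.399 and 0.494 TPM in the shCtrl libraries. The groups were far apart, and the shSafb libraries were nearly equal. The ratio of the means was 20.6, from 9.20 ± 0.00633 TPM in shSafb and 0.446 ± 0.0671 TPM in shCtrl (SD, n = 2 each). On the scale used for fitting, log2(scaled TPM + 1), the difference was 2.83 ± 0.12 (SE), the 10th largest rise of 13111 tested genes. That scale understates a change from a level under 1 TPM. With a pseudocount of 0.1 in place of 1 the log2 difference was 4.12. Both shCtrl values were under 1 TPM, so the ratio is imprecise. Klf2 also entered the fit, which asked for a mean of 1 TPM over the 4 libraries, only through its shSafb values.

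Klf6, a gene induced in injured liver, had the highest level of the 10 genes in every library. It was at 308 and 309 TPM in shSafb, against 162 and 153 TPM in shCtrl. All shSafb values lay at least 145 TPM above the shCtrl values. The ratio of the means was 1.96, with 308 ± 1.23 TPM in shSafb and 158 ± 6.79 TPM in shCtrl, and the log2 difference was 0.99 ± 0.04 (SE), 507th among the rises. In TPM the mean difference was 151 TPM for Klf6, 30.4 TPM for Klf13, 29.9 TPM for Klf15 and 15.4 TPM for Klf10, against 8.75 TPM for Klf2. The order of Klf2 and Klf6 was therefore opposite as a ratio and as a difference in transcripts.

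Klf4, known as a reprogramming factor and for epithelial differentiation, was low in all libraries. It had 3.01 and 2.81 TPM in shSafb, against 1.15 and 1.27 TPM in shCtrl, a ratio of 2.40 and a log2 difference of 0.84 ± 0.13 (SE). Its ratio was above that of Klf6, while its log2 difference, computed with a pseudocount of 1, was below it. With a pseudocount of 0.1 the log2 difference of Klf4 was 1.22. Klf5, known for sustaining proliferation of gut epithelium, had 5.56 and 7.02 TPM in shSafb, against 6.69 and 4.29 TPM in shCtrl. The Klf5 values of the groups overlapped. Its log2 difference of 0.21 ± 0.21 (SE) changed sign without shCtrl replicate 2 (-0.040).

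**Figure D1:**
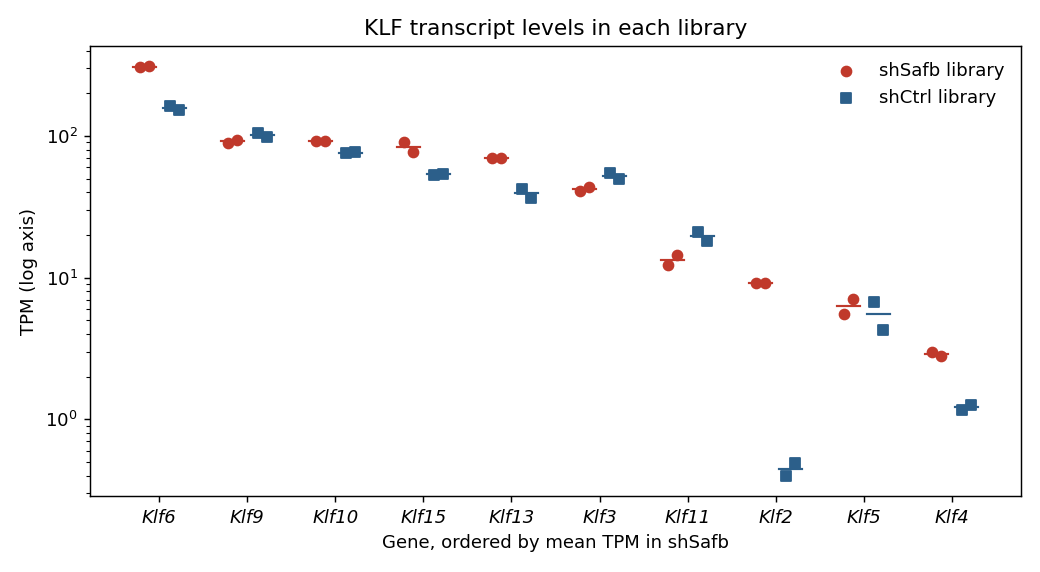
TPM of each of the 10 KLF genes on a log axis, with red circles for the 2 shSafb libraries, blue squares for the 2 shCtrl libraries and a short line at each group's mean. Klf2 has the widest gap, with 9.20 TPM in shSafb and 0.446 TPM in shCtrl on average, and Klf5 is the gene whose groups overlap.

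The Sin3-binding group went both ways. Klf13, known in T cells as an activator of the chemokine gene Ccl5, had 69.4 and 70.03 TPM in shSafb, against 42.2 and 36.5 TPM in shCtrl (ratio 1.77, log2 difference 0.84 ± 0.07, SE). Klf10, an early gene of TGF-beta signalling, had 91.3 and 91.7 TPM in shSafb, against 75.4 and 76.8 TPM in shCtrl (ratio 1.203, log2 difference 0.29 ± 0.05, SE). For both genes each shSafb library was above each shCtrl library.

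Klf11, the closest relative of Klf10 and also a TGF-beta early gene, lay on the other side. It had 12.2 and 14.3 TPM in shSafb, against 21.04 and 18.2 TPM in shCtrl, so its shCtrl mean was 1.48 times its shSafb mean (log2 difference -0.51 ± 0.11, SE). Klf9, a glucocorticoid and thyroid hormone response gene, had 89.8 and 93.7 TPM in shSafb, against 105 and 98.8 TPM in shCtrl (log2 difference -0.13 ± 0.05, SE). Its groups did not overlap, but the gap between them was 5.15 TPM.

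Klf3, a CtBP-binding repressor, had 41.1 and 43.3 TPM in shSafb, against 54.4 and 50.02 TPM in shCtrl (log2 difference -0.28 ± 0.06, SE). Both shSafb values were lower. Klf15, which in liver is known for promoting amino acid breakdown and glucose production, had 89.9 and 76.8 TPM in shSafb, against 53.2 and 53.6 TPM in shCtrl (ratio 1.56, log2 difference 0.65 ± 0.09, SE). The shSafb libraries of Klf15 differed from each other by more than those of any other gene here in TPM (SD 9.28), yet both were at least 23.2 TPM above shCtrl.

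Of the 10 genes, 6 were called higher and 2 lower in shSafb by limma with a Benjamini-Hochberg adjusted p under 0.05. Over all 13111 tested genes 44.3% were called, 21.9% higher and 22.4% lower, so calls in both directions were common. The groups did not overlap for 9 of the 10, with 6 above and 3 below, where this held for 74.7% of tested genes (35.5% above and 39.3% below). The genes were chosen with this comparison known, and Klf2 passed the filter only through shSafb, so these counts are no test of the 10 genes and nothing is read from them. The number of genes called higher over the whole table was 2867, and 1754 without shSafb replicate 1 or 1791 without shSafb replicate 2.

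**Figure D2:**
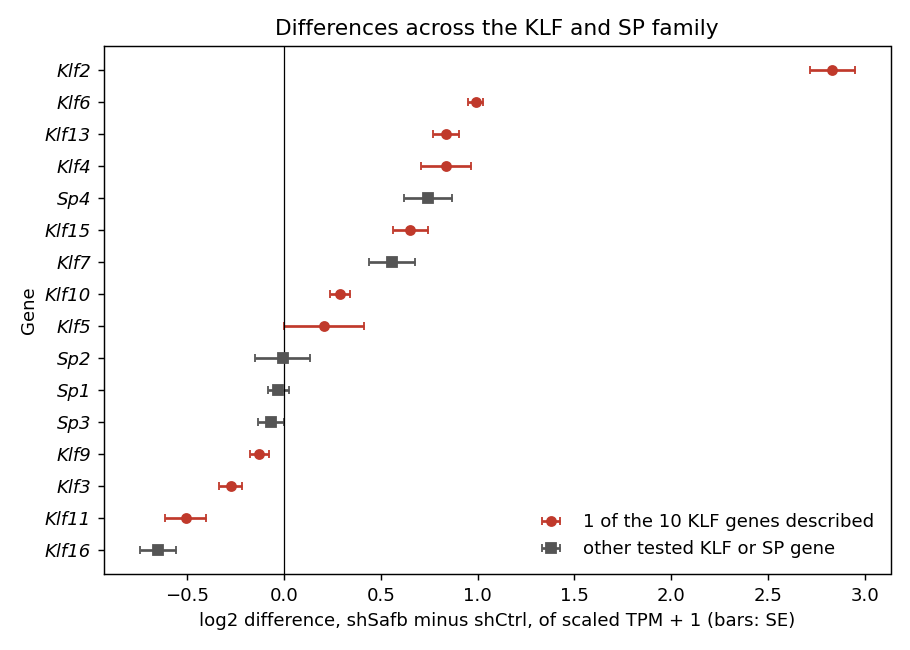
Log2 difference, shSafb minus shCtrl, of scaled TPM + 1 for the 10 KLF genes (red circles) and the 6 other tested KLF and SP genes (grey squares), with standard errors from limma. Klf2 stands at 2.83, Klf6 at 0.99 and Klf16 at -0.65, so the family is spread on both sides of 0.

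The order of the genes by level was nearly kept between the groups. In shSafb it ran Klf6, Klf9, Klf10, Klf15, Klf13, Klf3, Klf11, Klf2, Klf5 and Klf4, and the neighbours Klf9 and Klf10 overlapped at 91.7 ± 2.77 and 91.5 ± 0.269 TPM. In shCtrl it ran Klf6, Klf9, Klf10, Klf15, Klf3, Klf13, Klf11, Klf5, Klf4 and Klf2, and the neighbours Klf15 and Klf3 overlapped at 53.4 ± 0.27 and 52.2 ± 3.08 TPM. All other neighbours in either order were apart in their library values. Klf2 was the 8th of the 10 in shSafb and the 10th in shCtrl, and Klf13 and Klf3 traded places. The summed level of the 10 genes was 719 and 718 TPM in shSafb, against 522 and 493 TPM in shCtrl. Without Klf6 it was 411 and 409 TPM in shSafb, against 360 and 340 TPM in shCtrl. Klf6 made up 42.8% and 43.1% of the sum in shSafb, against 31.1% and 31.0% in shCtrl, while Klf9 made up 12.5% and 13.04%, against 20.2% and 20.1%. Klf2 made up 1.28% of the sum in both shSafb libraries, against 0.0764% and 0.100% in the shCtrl libraries.

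**Figure D3:**
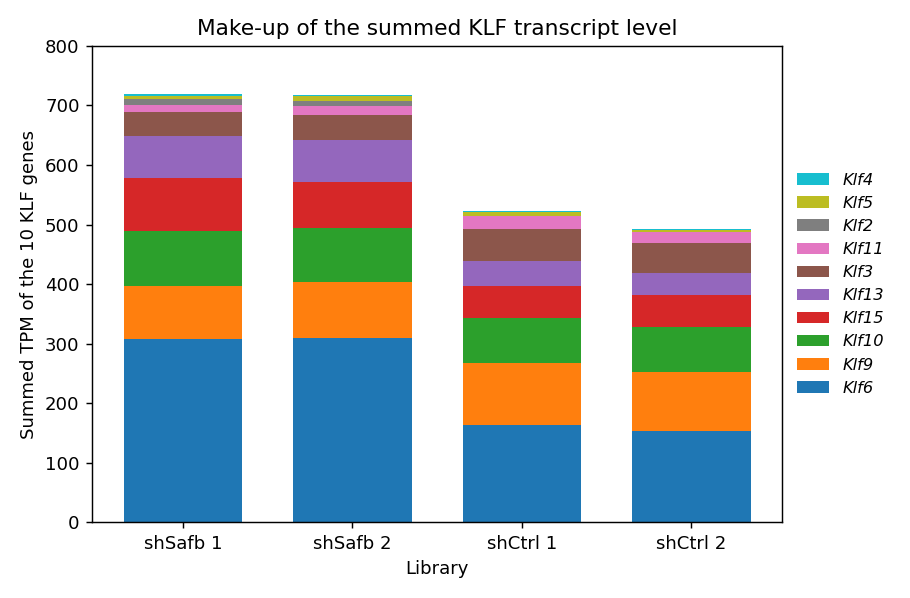
Summed TPM of the 10 KLF genes in each library, stacked by gene, with the 2 shSafb libraries on the left and the 2 shCtrl libraries on the right. The sums are 719 and 718 TPM in shSafb and 522 and 493 TPM in shCtrl, and the Klf6 block at the base is the part that differs most.

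The genes lie on 10 different chromosomes of mm10. Klf2 (ENSMUSG00000055148) is on chromosome 8 from 72319033 to 72321656, plus strand, and is the shortest of them at 2.62 kb. Klf6 (ENSMUSG00000000078) is on chromosome 13 from 5861482 to 5870394, plus strand. Klf13 is the longest at 52.6 kb. Other annotated genes overlap 3 of the 10. The antisense transcript Gm27252, at 3.81 to 5.72 TPM in shSafb and 3.79 to 3.94 TPM in shCtrl, and the protein-coding entry E030018B13Rik, at 0 in all libraries, overlap Klf13. The gene bounds of Klf3 overlap those of C230096K16Rik on its own strand, at 4.97 to 5.77 TPM in shSafb and 3.96 to 4.55 TPM in shCtrl. Transcripts of Klf3 and C230096K16Rik share no stretch of 50 bases. Klf3 also overlaps the antisense Gm20033, at under 1 TPM in all libraries. Klf9 holds a microRNA gene on its own strand, Mir1192, at 25.6 and 27.99 TPM in shSafb, against 22.3 and 17.9 TPM in shCtrl. Mir1192 was called higher (limma adjusted p = 0.0327), while Klf9 had lower values in shSafb. The overlap is between gene bounds, as Klf9 transcripts share no stretch of 50 bases with those of another gene. Unspliced Klf9 RNA across Mir1192 cannot be told apart from RNA of the microRNA gene. This call is therefore not read as a measure of the microRNA alone. That call was lost without shCtrl replicate 2 (limma adjusted p = 0.0808), shSafb replicate 1 (0.0736) or shSafb replicate 2 (0.123), with no filter (0.0800) and with TPM as deposited (0.0534), over a range of 0.0260 to 0.123. No source used here says whether counting used strand, so reads of Klf3 and Klf13 cannot be told apart from those of their antisense partners. Of all 50-base words in their transcripts, 0% of those of Klf2, Klf6, Klf9, Klf10, Klf11 and Klf15 occurred in transcripts of another gene, and at most 0.350% for the other 4, Klf3 having the most. No 50-base word was shared between any pair of the 10.

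None of the 4 nearest tested genes beside Klf2 and Klf6 on the chromosome was called higher, where 21.9% of all tested genes were. With only 4 genes, nothing is read from this count. These neighbours were looked up after the data were seen, as the nearest tested gene on each side of each of the 10. Eps15l1, an endocytic adaptor gene 19.3 kb from Klf2, was at 19.6 and 22.8 TPM in shSafb, against 30.1 and 28.8 TPM in shCtrl (log2 difference -0.44 ± 0.09, limma adjusted p = 0.0186). Leaving out shCtrl replicate 1, shCtrl replicate 2 or shSafb replicate 1 ended the call, with a limma adjusted p of 0.0703, 0.0667 and 0.0583 (0.0166 to 0.0703 over 11 alternatives). Gm10282, on the other side of Klf2 at 13.8 kb, was at 3.72 and 2.92 TPM in shSafb, against 4.27 and 3.28 TPM in shCtrl (limma adjusted p = 0.564).

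Beside Klf6, Pitrm1, a mitochondrial peptidase gene 678 kb away, was at 15.0 and 14.0 TPM in shSafb, against 37.2 and 35.1 TPM in shCtrl (log2 difference -1.24 ± 0.07, limma adjusted p = 8.38e-04). The noncoding gene Gm35330, 137 kb away on the other side, was at 1.21 and 0.674 TPM in shSafb, against 4.12 and 3.91 TPM in shCtrl (log2 difference -1.37 ± 0.18, limma adjusted p = 0.00527). Both fell while Klf6 itself was higher, but Gm35330 passed the filter only through its shCtrl values. Of all 20 neighbours, 5 were higher and 5 lower by limma, where 44.3% of all tested genes were called, and their median log2 difference was 0.038 against 0.0016 over all tested genes. The count higher was 3 when any 1 of the 4 libraries was left out. Of the neighbours higher, Mtmr10 beside Klf13 (56.8 ± 1.87 TPM in shSafb and 28.6 ± 1.09 TPM in shCtrl; limma adjusted p = 8.63e-04) and Gm44421 beside Klf15 (10.4 ± 0.693 TPM in shSafb and 4.28 ± 0.512 TPM in shCtrl; limma adjusted p = 0.00242) stood beside genes that were also higher. These 2 were chosen after their values were seen.

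The rest of the KLF and SP family was mostly low in these cells. Of 16 further genes, 10 were below the mean of 1 TPM and were not tested, and 4 of these were at 0 in all libraries. Of the 6 tested, 2 were higher and 1 lower (44.3% of all tested genes were called), with a median log2 difference of -0.018. Klf7, an activator close to Klf6, rose to 31.3 and 36.5 TPM in shSafb, against 25.6 and 20.7 TPM in shCtrl (log2 difference 0.56 ± 0.12, limma adjusted p = 0.0206). Leaving out shCtrl replicate 2 or shSafb replicate 2, or using no filter on low values, ended the call, with a limma adjusted p of 0.0674, 0.0759 and 0.0562 (0.0179 to 0.0759 over 11 alternatives). Sp4, an SP activator, rose to 6.43 and 5.89 TPM in shSafb, against 3.10 and 3.59 TPM in shCtrl (limma adjusted p = 0.0103), a call lost without shSafb replicate 1 (0.0540; 0.00872 to 0.0540 over 11 alternatives). The count higher was 1 when shCtrl replicate 2, shSafb replicate 1 or shSafb replicate 2 was left out.

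Klf16, of the Sin3-binding group, fell to 4.73 and 5.10 TPM in shSafb, against 8.86 and 8.01 TPM in shCtrl (log2 difference -0.65 ± 0.09, limma adjusted p = 0.00707). Sp1 was at 34.7 and 35.4 TPM in shSafb, against 37.6 and 35.3 TPM in shCtrl, and Sp3 at 38.3 and 38.2 TPM, against 43.7 and 38.2 TPM; the limma adjusted p was 0.684 for Sp1 and 0.452 for Sp3. These ubiquitous factors bind the same GC boxes as the KLFs. Sp2 was at 1.23 and 1.202 TPM in shSafb, against 1.36 and 1.14 TPM in shCtrl (limma adjusted p = 0.973).

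Genes for cofactors through which KLFs act were called in both directions. Of 17 listed cofactor and ubiquitin ligase genes, all tested, 5 were lower and 1 higher (against 22.4% and 21.9% of all tested genes), with a median log2 difference of -0.071. Ctbp1, the corepressor of Klf3, fell to 61.3 and 72.5 TPM in shSafb, against 104 and 100.2 TPM in shCtrl (log2 difference -0.58 ± 0.09, limma adjusted p = 0.00795). Sin3b, a scaffold of the Sin3 complex, fell to 80.8 and 83.5 TPM in shSafb, against 109 and 104 TPM in shCtrl (log2 difference -0.34 ± 0.05, limma adjusted p = 0.00533). Smurf1, a ubiquitin ligase reported to act on KLF2, fell to 16.1 and 17.1 TPM in shSafb, against 25.6 and 21.9 TPM in shCtrl (limma adjusted p = 0.0131), a call lost without shSafb replicate 1 (0.0633; 0.0116 to 0.0633 over 11 alternatives). The calls of Hdac1 (log2 difference -0.30, limma adjusted p = 0.0320), Hdac2 (0.33, 0.0405) and Smurf2 (-0.18, 0.0435) were less firm. Hdac1 lost its call without shCtrl replicate 1, shSafb replicate 1 or shSafb replicate 2, Hdac2 without shCtrl replicate 2, shSafb replicate 1 or shSafb replicate 2, and Smurf2 without any 1 of the 4 libraries. Processing choices also ended these calls. Hdac1 lost its call with no filter (limma adjusted p = 0.0549) and Smurf2 with no intensity trend (0.0830) or a replicate block (0.0983). Hdac2 lost its call with genes from a mean of 0.1 TPM (0.0604), no filter (0.0998), TPM as deposited (0.0744) or no intensity trend (0.0689). Their limma adjusted p reached 0.132, 0.128 and 0.181 at most over the alternatives. The count lower was 3 without shCtrl replicate 1, 2 without shSafb replicate 1 and 3 without shSafb replicate 2. The count higher was 0 without shCtrl replicate 2, shSafb replicate 1 or shSafb replicate 2.

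Regulators known to act on KLF genes also went both ways. Of 22 listed genes, 21 were tested, 3 were higher and 5 lower (against 21.9% and 22.4% of all tested genes), with a median log2 difference of 0.10. The clock factor genes rose: Arntl had 14.9 and 15.9 TPM in shSafb, against 6.71 and 7.44 TPM in shCtrl (log2 difference 1.05 ± 0.10, limma adjusted p = 0.00241), and Clock had 27.6 and 26.4 TPM, against 14.4 TPM in both shCtrl libraries (log2 difference 0.89 ± 0.07, limma adjusted p = 0.00142). Klf9, Klf10 and Klf15 are known as genes with a daily rhythm. Tgfbr1, a receptor of the pathway that induces Klf10 and Klf11, rose to 120 and 114 TPM in shSafb, against 65.4 and 63.8 TPM in shCtrl (limma adjusted p = 8.67e-04), while Smad4, the common mediator of that pathway, fell to 55.1 and 53.1 TPM, against 69.9 and 69.5 TPM (limma adjusted p = 0.00837).

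Foxo3, a forkhead factor related to the Klf2 regulator Foxo1, fell to 30.4 and 31.2 TPM in shSafb, against 45.4 and 42.9 TPM in shCtrl (limma adjusted p = 0.00345). Foxo1 itself, added after its values were seen, was not called and its groups overlapped. It was at 2.53 and 2.97 TPM in shSafb, against 3.67 and 2.87 TPM in shCtrl (limma adjusted p = 0.396). Piezo1, a stretch-activated channel gene, fell to 27.5 and 25.8 TPM in shSafb, against 40.9 and 39.5 TPM in shCtrl (limma adjusted p = 0.00348). The genes of the kinase and MEF2 route to Klf2 were picked out after their values were seen, and 1 of them was called. Map3k3, the kinase gene at the top of that route, fell to 28.9 and 31.6 TPM in shSafb, against 42.4 and 40.1 TPM in shCtrl (log2 difference -0.41 ± 0.07, limma adjusted p = 0.00951). The others were not called. Mef2d was at 12.2 and 11.7 TPM in shSafb, against 10.9 and 8.97 TPM in shCtrl (limma adjusted p = 0.0888), Mef2a at 26.4 and 17.8 TPM, against 24.2 and 14.0 TPM (0.534), and Mef2c was at 0 in all libraries. The kinase genes Map2k5 and Mapk7 had a limma adjusted p of 0.361 and 0.436. Nr3c1, the glucocorticoid receptor gene, varied within groups, at 21.1 and 29.2 TPM in shSafb and 17.5 and 31.2 TPM in shCtrl (limma adjusted p = 0.814). Egr1, an early response gene, was at 99.6 and 114 TPM in shSafb, against 104 and 88.9 TPM in shCtrl (limma adjusted p = 0.205). Both were chosen after their values were seen.

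Of 29 genes reported as KLF targets, mostly in other cell types, 17 were tested, 4 were higher and 7 lower (against 21.9% and 22.4% of all tested genes), with a median log2 difference of -0.27. Edn1, the endothelin gene that KLF2 represses in endothelium, rose to 21.4 and 21.3 TPM in shSafb, against 2.60 and 1.80 TPM in shCtrl (log2 difference 2.84 ± 0.13, limma adjusted p = 7.38e-04). Vcam1, another reported KLF target, added after its values were seen, went the other way. It had 43.5 and 45.4 TPM in shSafb, against 67.9 and 65.7 TPM in shCtrl (log2 difference -0.55 ± 0.05, limma adjusted p = 0.00226). Ccnb1, the cyclin B1 gene linked to KLF5, rose to 35.6 and 35.5 TPM in shSafb, against 11.96 and 13.3 TPM in shCtrl (log2 difference 1.45 ± 0.09, limma adjusted p = 9.34e-04). Cdh1, the E-cadherin gene that KLF4 activates, fell to 74.2 and 73.4 TPM in shSafb, against 173 and 154 TPM in shCtrl (log2 difference -1.11 ± 0.06, limma adjusted p = 7.82e-04).

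Maob, the monoamine oxidase B gene that KLF11 activates in human cells, fell to 18.1 and 17.7 TPM in shSafb, against 42.4 and 39.8 TPM in shCtrl (log2 difference -1.13 ± 0.06). Gpt, the alanine aminotransferase gene tied to KLF15, fell to 18.1 TPM in both shSafb libraries, against 34.4 and 37.0 TPM in shCtrl (log2 difference -0.92 ± 0.08). Prodh, another reported KLF target, added after its values were seen, went the other way. It had 12.2 and 11.1 TPM in shSafb, against 7.95 and 7.35 TPM in shCtrl (log2 difference 0.57 ± 0.09, limma adjusted p = 0.00849). Mmp14, a matrix protease gene, fell to 53.9 and 51.4 TPM in shSafb, against 113 and 104 TPM in shCtrl (log2 difference -0.998 ± 0.05). The limma adjusted p was 7.97e-04 for Maob, 0.00183 for Gpt and 8.52e-04 for Mmp14. Targets of 1 factor were too few to compare factors, and 12 of the 29 were below the filter.

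**Figure D4:**
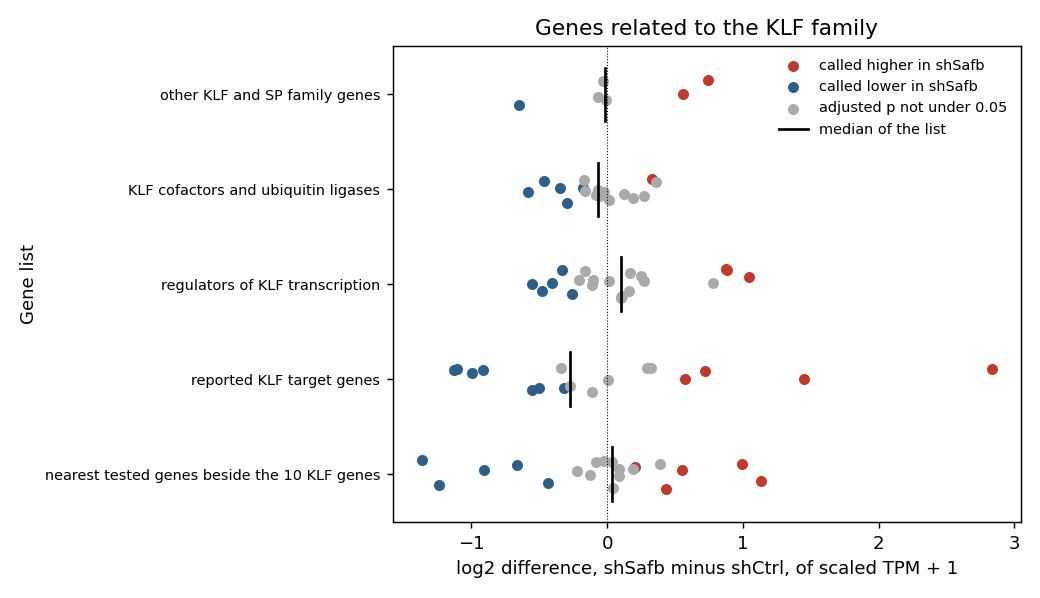
Log2 difference, shSafb minus shCtrl, of scaled TPM + 1 for every tested gene of 4 KLF-related lists and for the 20 nearest tested neighbours, with red, blue and grey points for genes called higher, called lower and not called, and a black line at the list's median. Every list holds calls in both directions, and Edn1 at 2.84 is the point farthest right.

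Genes with the pattern most like Klf2 and Klf6 were sought among tested protein-coding genes, by Euclidean distance over the 4 libraries after subtracting each gene's mean on the log2(scaled TPM + 1) scale. With 2 groups of 2 libraries this measure chiefly finds genes with a like difference between groups. Among the nearest to Klf2 were Muc5b (distance 0.26), Edn1 (0.30), Akr1b7 (0.31) and Afp (0.37). Afp, the alpha-fetoprotein gene of fetal liver, had 27.7 and 26.9 TPM in shSafb, against 2.25 and 2.08 TPM in shCtrl. Among the nearest to Klf6 were Cyp3a16, Hist1h3i, Zfp568 and Kbtbd8, at distances of 0.013 to 0.027. Hist1h3i, a histone H3 gene, had 294 and 293 TPM in shSafb, against 153 and 146 TPM in shCtrl.

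Endothelial, blood and macrophage, and stellate cell and fibroblast markers were mostly low. In each of these lists, 7 of 8 were below the mean of 1 TPM and were not tested. Of 8 endothelial markers, Cdh5, Kdr and Tie1 were at 0 in all libraries, and the summed level was 14.4 and 15.8 TPM in shSafb, against 14.2 TPM in both shCtrl libraries. Egfl7 made up nearly all of it, at 14.4 and 15.5 TPM in shSafb, against 14.0 and 13.7 TPM in shCtrl. Of 8 blood and macrophage markers, Adgre1 and Cd3e were at 0 in all libraries and the sum was 2.83 and 3.16 TPM in shSafb, against 1.63 and 2.29 TPM in shCtrl. Of that sum Csf1r held 1.92 and 1.72 TPM in shSafb, against 0.239 and 0.450 TPM in shCtrl. Csf1r was called higher (log2 difference 1.08 ± 0.17, limma adjusted p = 0.00852), but passed the filter only through its shSafb values. Stellate cell and fibroblast markers summed to 2.05 and 2.51 TPM in shSafb, against 2.31 and 2.50 TPM in shCtrl, with Lrat and Lum at 0 in all libraries.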

How the data were processed

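RNA was measured in 2 shSafb and 2 shCtrl libraries, from a stranded protocol with ribosomal RNA removed, as the labels' protocols state. The submitters' processing notes name mm10 and the tools HISAT2, HTSeq, StringTie and DESeq2, with no versions, roles or annotation release. Each library has 1 deposited TPM value for a gene, scaled by the authors so that columns sum to 999843 or 999891. The 52200 rows hold 52192 identifiers, and 6 identifiers on more than 1 row were summed. Names and positions came from GENCODE mouse release 21 on mm10, which lacks 147 identifiers. No read counts were used, so no interval for counting error could be had.

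Genes with a mean of at least 1 TPM (13111) were scaled by the median ratio to the geometric mean and fitted as log2(TPM + 1) by limma (group only, intensity trend, two-sided). Benjamini-Hochberg adjustment ran over all tested genes, with 0.05 as the threshold. The fit was tested on simulated data. The KLF genes, the lists and the tests were chosen with earlier results of these data known. Named from the lists were all tested KLF and SP genes and the 6 genes with the smallest p of each other list. Also named by rule were Safb, the 10 KLF genes, the 5 genes nearest to Klf2 and to Klf6, and the highest and absent markers. Some of the genes nearest to Klf2 and Klf6 are not reported here. Other genes are marked where named, or illustrate the cell type. Alternatives covered the pseudocount, filter, scaling, variance model, replicate block and leaving out each library. Software was limma 3.58.1 in R 4.3.3, and Python 3.11.15 with matplotlib 3.10.9, numpy 2.4.6 and pandas 2.3.3.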

Additional observations from a re-analysis of the deposited data

How the results depend on the processing

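Over 11 alternatives, 9 of the 10 KLF genes kept the sign of their log2 difference, and Klf5 was the exception (-0.040 without shCtrl replicate 2, and -0.040 to 0.45 with 1 library left out). Klf2 was at 4.12 with a pseudocount of 0.1, at 3.14 after dropping genes of small RNAs and of mitochondrial DNA, and at 2.77 to 2.89 with 1 library left out. Klf6 was at 0.97 with genes from a mean of 0.1 TPM or with no filter, at 0.96 with TPM as deposited, and at 0.97 to 1.003 with 1 library left out. The count of genes higher was 1754 to 2151 with 1 library left out. The count of cofactor genes higher was 0 with a mean of 0.1 TPM, no filter, TPM as deposited or no intensity trend, and 0 to 1 with 1 library left out; the count lower was 2 to 4. The count of other KLF and SP genes higher was 1 with no filter and 1 to 2 with 1 library left out, and that of neighbours higher was 3. Of 61 other named genes with a test, 44 were called, and 35 of these stayed called in all alternatives that gave them a value; Mir1192 has none where small RNA genes are dropped. Many of the 61 were named for a small p or for a pattern like that of Klf2 or Klf6. The counts called and kept follow in part from that choice, and nothing is read from them. Over all tested genes 44.3% were called. Foxo1, Prodh and Vcam1 are not among the 61. Signs changed in genes that were not called, with 1 library left out: Sp2 (-0.065 to 0.048), Gm10282 (-0.26 to 0.013), Krt18 (-0.011 to 0.074), Mef2a (-0.10 to 0.59) and Nr3c1 (-0.32 to 0.53). Tgfb1 was called without shCtrl replicate 1 (limma adjusted p = 0.0321, against 0.0733). A replicate block, with 2540 genes higher and 2686 lower, ended the call of Smurf2 (limma adjusted p = 0.0983). Same-numbered libraries showed no strong shared deviation (r = -0.064 across genes). Whether the numbers pair samples by culture was not tested, as the labels name no culture. Where not stated above, the cause was not tested. With 1 library left out, the lone sample is assumed to vary like the other group. Depth is unknown, so the precision of Klf2 in shCtrl cannot be given.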
